A study of Mus musculus with 12 samples.

Results

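The genes described here encode parts of a trans-synaptic bridge, Grid1 (the delta glutamate receptor GluD1) and the cerebellins Cbln1, Cbln2 and Cbln4, together with Syndig1, a transmembrane protein associated with AMPA-type glutamate receptors. Regions of the histone mark H3K9me2 were assigned to a member when they overlapped it. Where no named gene was overlapped, they were assigned when the listed closest transcription start bore the member's name. Regions whose listed start had no name stayed without a gene. Of the 5 members, 3 had any region. They held 49 of 33787 regions in the first table, which compares FAD with WT mice (Grid1 24, Cbln2 18, Syndig1 7) and 66 of 43680 in the second, which compares FAD-BIX with FAD mice (Grid1 32, Cbln2 24, Syndig1 10). Cbln1 and Cbln4 had 0 assigned regions in both tables. Only 37.6% of all regions in the first table and 37.9% in the second had a named gene.

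Delta receptors resemble ionotropic glutamate receptors but act mainly as organizers of synapses. Their outer domain binds cerebellins, which are secreted proteins of the C1q family, and cerebellins bind neurexins on the presynaptic side. GluD1 is widely expressed in the forebrain, and Cbln2 and Cbln4 are forebrain cerebellins, whereas Cbln1 is best known at the parallel fibre synapses of the cerebellum. H3K9me2, the dimethylated form of lysine 9 of histone H3, marks broad stretches of repressed chromatin and is written mainly by the methyltransferases EHMT1 and EHMT2.

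ChIP-seq, in which chromatin pulled down with an antibody to the mark is sequenced, was run on punches of prefrontal cortex of C57BL/6 mice. Each of the 3 groups had 2 mice, aged 5 to 6 months, and every mouse gave 1 ChIP and 1 input library. By their labels, FAD-BIX mice carried mutations of familial Alzheimer's disease (AD) and received BIX01294, which inhibits EHMT1 and EHMT2. Mice labelled FAD carried the mutations without the inhibitor, and WT mice were wild type; 1 of the FAD mice did not match its label at a transgene-linked gene, as described next. The name of the FAD line, its promoter, and the dose, route and duration of BIX01294 are not stated in the labels. The design sets FAD against WT mice, and inhibitor-treated against untreated FAD mice. As punches hold all cell types, fewer cells with the mark and less mark per cell cannot be told apart. Levels of a histone mark are not levels of RNA, so the labelled tissue was not checked against markers.

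Depth ranged over 20.45 to 26.58 M reads for ChIP and 13.92 to 23.76 M for input libraries. The library labelled FAD 1 stood apart. At Thy1, whose promoter drives the transgene of widely used FAD lines, the 3 regions of the table with FAD-BIX had 395.39 and 376.41 ChIP reads per 1 M library reads (RPM) in FAD-BIX mice, 0.8 RPM in the library labelled FAD 1 and 590.47 RPM in FAD 2. The input of the mouse labelled FAD 1 had 3.97 RPM, beside 365.62 RPM in the input of FAD 2. In the FAD and WT table the single Thy1 region had 0.16 RPM in the library labelled FAD 1 and 40.34 RPM in FAD 2, against 0.2 and 0.08 RPM in WT mice. Over 12 heart muscle genes, of which 5 had regions, the FAD libraries had 66.77 and 20.39 RPM and the WT libraries 10.99 and 8.5 RPM. The higher FAD value was that of the library labelled FAD 1. It came mostly from Myh6 (771 reads there, against 69 in FAD 2), Actc1 (470 against 46) and Mb (229 against 9). Nppb was also higher there (40 against 27), while Ryr2, with 13 of the 23 regions, was lower (155 against 273). The inputs showed no such excess, with 6.41 and 8.35 RPM in FAD and 7.49 and 7.1 RPM in WT mice. At Thy1 the ChIP and input libraries labelled FAD 1 thus go against their label, with a ChIP level like that of the WT mice, and the genotype of this mouse is in doubt wherever a FAD value is given. The part of either difference in the results below was not tested, and values are given by mouse and without this library. FAD 2 stood apart in another way: it called 64.7% of all regions of the FAD and WT table and 50.2% of those of the other, where the other libraries called between 8.9% and 26.0%.

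The regions of the 3 genes lay far from transcription starts. All Grid1 regions were intronic, in a gene of 763.38 kb (GRCm38 chromosome 14, 34820003 to 35583387). Intron 8 held 9 of 24 regions in the FAD and WT table and 15 of 32 in the FAD-BIX and FAD table, while intron 1 held none in either. Grid1 carried 3.14 regions per 100 kb in the first table, where 16 of 216 genes of at least 500 kb were denser and their median was 1.13, and 4.19 in the second, where 15 were denser and the median was 1.5. All Syndig1 regions were intronic too, in introns 1 and 3 and in the last intron, the nearest with its edge 8.12 kb from the start. All Cbln2 regions were intergenic. None touched the 7.22 kb gene (chromosome 18, 86711061 to 86718283), the nearest lay 91.8 kb away in the first table and 23.2 kb in the second, and the farthest was centred 522.4 kb from the start, so these regions belong to Cbln2 only by being closest to it.

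The members with no assigned region were both compact. Cbln1 spans 3.74 kb (chromosome 8), and its nearest region lay 42.9 kb away in the first table and 43.9 kb in the second. Cbln4 spans 7.13 kb (chromosome 2), and the same region 20.8 kb upstream was nearest in both. No region touched either gene. This means that no library passed the authors' caller there, not that the mark was absent, since the tables give no reads outside regions. The count of 0 also rests on the assignment. Within 100 kb lay 4 regions around Cbln1 in each table, and 2 and 5 around Cbln4, none of them assigned to either gene. At the region next to Cbln4 (chromosome 2, 172064313 to 172064595) the reads were 11 and 13 in FAD-BIX, 7 and 21 in FAD and 5 and 9 in WT mice, and the FAD values overlapped both other groups.

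RefSeq promoters could be matched for 2 of the 5 members, Syndig1 and Cbln4. They are shown because both starts lie in stretches where no region was called. Each line gives the 250 bases before the start on the gene's own strand (GRCm38.p6; for Syndig1, plus strand, chr2:149830533-149830782; for Cbln4, minus strand, chr2:172043467-172043716), with every CG dinucleotide in capitals.
Syndig1: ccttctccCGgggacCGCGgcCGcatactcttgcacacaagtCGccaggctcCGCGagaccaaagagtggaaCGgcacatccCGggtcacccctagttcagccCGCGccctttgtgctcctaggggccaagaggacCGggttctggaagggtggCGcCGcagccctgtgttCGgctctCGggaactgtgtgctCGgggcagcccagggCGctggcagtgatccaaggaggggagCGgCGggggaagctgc
Cbln4: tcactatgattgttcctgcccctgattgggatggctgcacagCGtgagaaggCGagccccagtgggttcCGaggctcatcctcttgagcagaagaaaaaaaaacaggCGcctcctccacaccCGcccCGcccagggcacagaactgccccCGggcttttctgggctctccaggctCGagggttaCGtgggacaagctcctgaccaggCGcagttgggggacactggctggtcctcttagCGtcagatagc
The Syndig1 stretch held 20 CG and the Cbln4 stretch 11. Among 32851 RefSeq promoters cut to the same length the median was 6 and 92.1% held at least 1; 17.9% held as many as Syndig1 or more, and 35.6% as many as Cbln4 or more. CG reads the same on both strands. The count describes these letters and says nothing about methylation, which was not measured.

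Grid1, the receptor, had more mark in the FAD 2 library than in any other. That library had called 15 of the 24 regions of the first table, so its level is fixed in part by the choice of regions. Summed over its 24 regions, the ChIP reads were 331 and 452 in FAD mice, against 350 and 296 in WT mice, or 1.52 and 2.48 RPM per kb of region in FAD, against 1.63 and 1.27 in WT mice. The groups overlapped, since the library labelled FAD 1 lay between the WT libraries. The means were 2.00 ± 0.68 RPM per kb in FAD and 1.45 ± 0.26 in WT mice (SD, n = 2 each), beside 2.31 ± 0.87 in FAD and 1.64 ± 0.09 in WT mice over all regions of the table. Relative to the other genes with TMM scaling, the log2 fold of FAD over WT was -0.11 ± 0.24 (SE; adjusted p = 0.973 with edgeR's quasi-likelihood test), and -0.27 ± 0.30 without the library labelled FAD 1. The sign depended on the scaling: with library totals it was 0.46 ± 0.51, where the median of all genes was itself 0.606.

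Cbln2, the cerebellin with regions, gave a like picture. Its 18 regions held 262 and 350 ChIP reads in FAD mice, against 236 and 295 in WT mice. That is 1.57 and 2.52 RPM per kb in FAD, against 1.44 and 1.66 in WT, so the groups overlapped. The log2 fold was -0.17 ± 0.24 (adjusted p = 0.938, edgeR), -0.34 ± 0.31 without the library labelled FAD 1, and 0.40 ± 0.51 with library totals.

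Syndig1, the AMPA receptor partner, had both FAD libraries above both WT libraries. Its 7 regions held 98 and 129 ChIP reads in FAD mice, against 80 and 82 in WT mice. That is 1.54 and 2.43 RPM per kb in FAD, against 1.28 and 1.21 in WT mice. Of these regions, 2 were called in the library labelled FAD 1 alone and 3 in FAD 2 alone. The higher FAD level is thus fixed in part by the choice of regions. Of all 4285 genes with regions, 33.0% had both FAD libraries above both WT libraries in the same way, and over all regions the levels were 1.70 and 2.92 RPM per kb in FAD, against 1.58 and 1.70 in WT mice. The log2 fold of Syndig1 was 0.10 ± 0.27 (adjusted p = 0.973, edgeR) relative to the other genes. It was -0.08 ± 0.39 without the library labelled FAD 1 and 0.67 with library totals. None of the 3 genes was called, and of 3747 genes tested 0.0% were, while at an unadjusted p under 0.05 edgeR gave 50 higher (1.33%) and 121 lower (3.23%); DESeq2 called 1 gene. The members were selected on ChIP log2 folds of single regions in these same contrasts, so their ChIP values are a description.

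**Figure D1:**
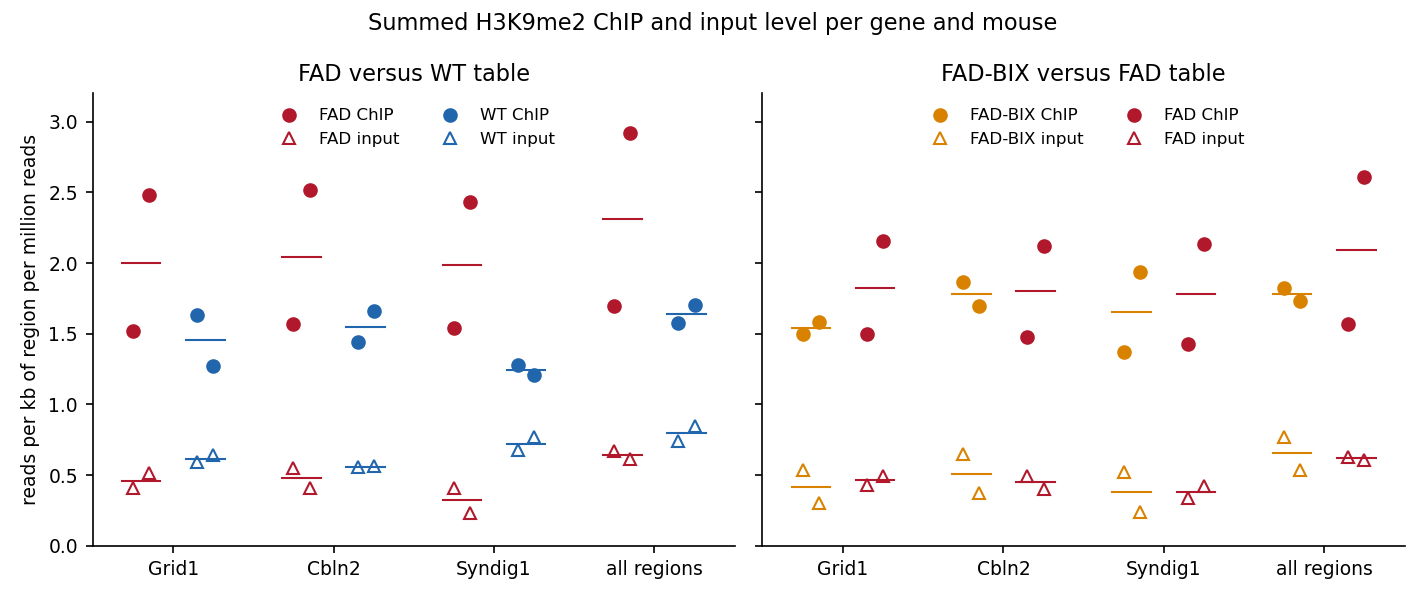
Summed level of each gene per mouse, in RPM per kb of region, for ChIP (filled circles) and input (open triangles), with short lines at the group means; left, FAD and WT, right, FAD-BIX and FAD. The FAD 2 library is the highest ChIP value for each of the 3 genes in both tables, and all inputs lie below 0.9.

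Under the inhibitor the summed levels of all 3 genes lay within the range of the FAD mice or next to it. Grid1 had 375 and 427 ChIP reads in FAD-BIX mice, against 457 and 549 in FAD mice, or 1.5 and 1.58 RPM per kb in FAD-BIX, against 1.5 and 2.15 in FAD mice. Cbln2 had 322 and 314 reads in FAD-BIX mice, against 311 and 372 in FAD mice, or 1.87 and 1.69 RPM per kb in FAD-BIX against 1.48 and 2.12 in FAD mice. Syndig1 had 109 and 166 reads in FAD-BIX mice, against 139 and 173 in FAD mice, or 1.37 and 1.94 RPM per kb in FAD-BIX against 1.43 and 2.13 in FAD mice. In each gene the FAD mice differed more from each other than the group means differed.

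The log2 folds of FAD-BIX over FAD were 0.02 ± 0.20 for Grid1 (adjusted p = 0.993), 0.25 ± 0.21 for Cbln2 (adjusted p = 0.916) and 0.17 ± 0.25 for Syndig1 (adjusted p = 0.965, all edgeR). Of 4044 genes tested 0.0% were called, while at an unadjusted p under 0.05 edgeR gave 118 higher (2.92%) and 74 lower (1.83%); DESeq2 called 0. With library totals the 3 folds turned to -0.24, -0.02 and -0.11, with the median of all genes at -0.295. Without the library labelled FAD 1 they were 0.18 ± 0.21, 0.41 ± 0.23 and 0.30 ± 0.30.

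ChIP stood above input in every mouse, which is fixed in part because the regions were called in ChIP libraries. In the FAD and WT table, with 1 read added to each sum, log2 ChIP over input of Syndig1 was 1.83 and 3.24 in FAD mice, against 0.90 and 0.63 in WT mice. For Grid1 it was 1.88 and 2.25 in FAD, against 1.46 and 0.98 in WT mice, and for Cbln2 it was 1.49 and 2.60 in FAD, against 1.37 and 1.55 in WT mice. Both FAD mice were above both WT mice for Grid1 and Syndig1, as for 36.6% of all 4285 genes, and the groups overlapped for Cbln2. FAD 2 had called 15 of the 24 Grid1 regions. Of the 7 Syndig1 regions, 2 were called in the library labelled FAD 1 alone and 3 in FAD 2 alone. This order is thus fixed in part by the choice of regions. Over all regions of the table the ratio was 1.34 and 2.25 in FAD, against 1.09 and 1.00 in WT mice, so the groups stood apart there too. In the other table all 3 genes overlapped: Grid1 had 1.48 and 2.38 in FAD-BIX, against 1.78 and 2.12 in FAD mice, Cbln2 had 1.52 and 2.15 in FAD-BIX, against 1.56 and 2.38 in FAD mice, and Syndig1 had 1.35 and 2.92 in FAD-BIX, against 2.01 and 2.28 in FAD mice.

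The inputs played no part in the choice of the genes and were tested. They were summed over called regions, however, and of the 7 Syndig1 regions 2 were called in FAD 1 alone and 3 in FAD 2 alone. Whether the calling favoured regions with low input in the calling library was not tested, so these input values are not independent of it. Syndig1 had 15 and 9 input reads in FAD mice, against 41 and 34 in WT mice, and the WT inputs were above both FAD inputs. The log2 fold was -0.87 ± 0.42 (unadjusted p = 0.057, adjusted p = 0.962, edgeR), so the lower input of the FAD mice enters the Syndig1 ratio above but did not pass the test. Input folds were -0.09 ± 0.31 for Grid1 and 0.08 ± 0.30 for Cbln2. In FAD-BIX over FAD they were -0.29 ± 0.32, 0.07 ± 0.32 and -0.14 ± 0.45 for Grid1, Cbln2 and Syndig1, all with an adjusted p of 0.999. Of 1300 and 1265 genes tested on inputs, 0.0% were called in either comparison by edgeR or DESeq2, while edgeR's unadjusted p was under 0.05 for 37 higher (2.85%) and 28 lower (2.15%) genes in the first and for 15 (1.19%) and 25 (1.98%) in the second.

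Single regions of a gene pointed in both directions. In FAD over WT, 42 of the 49 regions passed the low-count filter. An unadjusted p under 0.05 was reached by 1 higher and 5 lower regions, where 0.918% and 4.97% of all 27778 regions did, and none had an adjusted p under 0.05 (0.0% of all). In FAD-BIX over FAD, 51 of 66 passed, 4 were higher and 1 lower, where 3.93% and 1.18% of 31055 were, and again none passed adjustment (0.0% of all). By RPM alone, 14 regions were higher in both FAD mice than in both WT mice and 5 were lower, beside 29.6% and 7.09% of all regions. Between FAD-BIX and FAD mice, 8 were higher and 13 lower, beside 12.6% and 19.5%. These regions chose the members, so nothing is read from the counts.

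Grid1 had its regions closest together in intron 8. From 35376545 to 35389380 of chromosome 14 there were 6 regions in the first table, with 133 and 149 ChIP reads in FAD mice, against 106 and 93 in WT mice. In the FAD-BIX and FAD table, 11 regions ran from 35376567 to 35411655, with 126 and 164 reads in FAD-BIX mice, against 178 and 219 in FAD mice. Per kb of region the levels of the first stretch were 1.99 and 2.67 RPM in FAD, against 1.61 and 1.30 in WT mice, without overlap. Each region of this stretch had been called in a FAD library, so the higher FAD level is fixed in part by the choice of regions. Both FAD mice were above both WT mice at 29.6% of all regions too. The levels of the second stretch were 1.36 and 1.65 RPM per kb in FAD-BIX, against 1.58 and 2.33 in FAD mice, which overlap. The widest member region, 837 bp long and starting at 35376545, lay at its left end and had 18 and 44 reads in FAD mice, against 40 and 20 in WT mice, with the mice of each group far apart and a log2 fold of -0.47 ± 0.51 (adjusted p = 0.966, edgeR).

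In the same stretch lay a region in which FAD mice were above both other groups. At chr14:35389040-35389380 the ChIP reads were 13 and 5 in FAD-BIX, 28 and 28 in FAD and 6 and 11 in WT mice. Both FAD libraries called it and no other library did. The log2 fold of FAD over WT was 1.35 ± 0.55 (unadjusted p = 0.0348, adjusted p = 0.832, edgeR), and that of FAD-BIX over FAD was -1.23 ± 0.61 (unadjusted p = 0.0562, adjusted p = 0.897). The comparisons share the FAD libraries, and the high FAD counts enter both. Without the library labelled FAD 1 the folds were 0.95 ± 0.95 and -0.98 ± 0.92.

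A neighbour to the left had the opposite sign under the inhibitor. At chr14:35387258-35387705 the reads were 12 and 27 in FAD-BIX, against 4 and 16 in FAD mice, which overlap. The log2 fold was 1.45 ± 0.67 (adjusted p = 0.897, edgeR). This neighbour was called in FAD-BIX 2 alone, so its sign is fixed in part by the choice of regions. Farther along the gene, a region of intron 12 (chr14:35480706-35480999) had 3 and 2 reads in FAD, against 12 and 25 in WT mice. It was called in WT 2 alone. In intron 4, chr14:35051348-35051950 had 3 and 8 reads in FAD-BIX, against 13 and 34 in FAD mice, and was called in FAD 2 alone. It had 25 and 11 reads in WT mice, which overlap the FAD values.

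**Figure D2:**
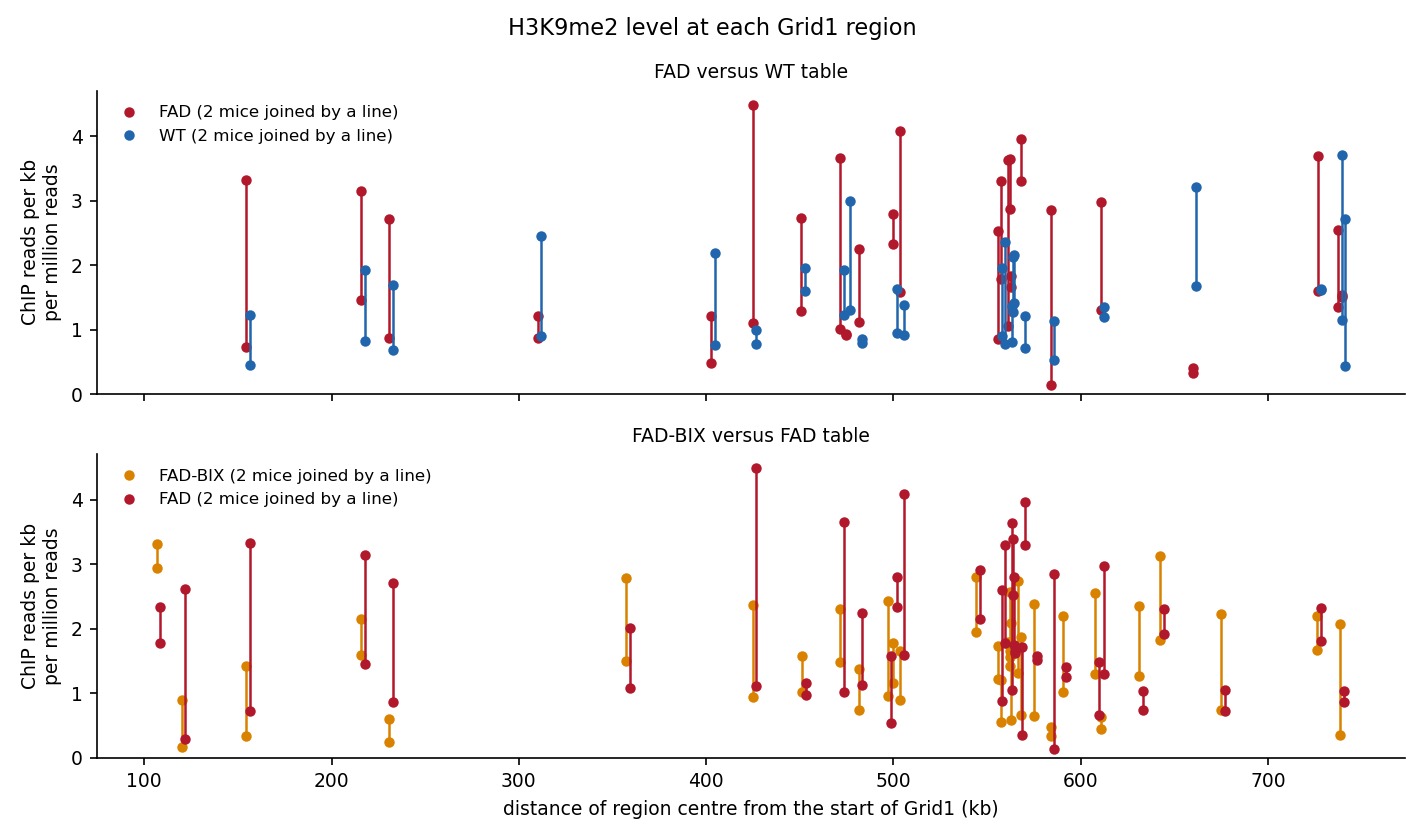
ChIP level of each Grid1 region (RPM per kb) by the distance of its centre from the gene start, with the 2 mice of a group joined by a line; above, FAD and WT, below, FAD-BIX and FAD, which are drawn side by side with a small offset. The regions crowd between 557.0 and 569.2 kb, in intron 8, and most lines of FAD and of its comparison group cover each other.

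Around Cbln2 the regions that stood out lay in the intergenic stretch downstream of the gene. At chr18:86906705-86906964, 195.8 kb from the start, there were 2 and 6 reads in FAD mice, against 20 and 18 in WT mice, which do not overlap; the log2 fold was -2.69 ± 0.70 (adjusted p = 0.832, edgeR) and -2.42 ± 0.97 without the library labelled FAD 1. It was called in WT 1 alone and had no counterpart in the other table. The region with the smallest p in the other direction, chr18:87073135-87073424, had 16 and 22 reads in FAD mice, against 9 and 6 in WT mice, with a log2 fold of 0.90 ± 0.64 (adjusted p = 0.920).

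Under the inhibitor, the Cbln2 region 236.5 kb from the start (chr18:86947250-86947860) was the only member region called in both FAD-BIX libraries and in no FAD library. It had 29 and 30 reads in FAD-BIX, against 8 and 16 in FAD mice, and no counterpart in the FAD and WT table. Its log2 fold was 1.74 ± 0.52 (adjusted p = 0.897, edgeR). At chr18:87022050-87022366 the reads were 24 and 11 in FAD-BIX, against 10 and 6 in FAD mice. This region was called in FAD-BIX 1 alone, and its log2 fold was 1.49 ± 0.71 (adjusted p = 0.897, edgeR). In both regions the FAD-BIX mice lay above the FAD mice by RPM, as at 12.6% of all regions. The region with the smallest p in the other direction, chr18:86845950-86846368, had 6 and 8 reads in FAD-BIX, against 12 and 24 in FAD mice, with a log2 fold of -0.89 ± 0.75 (adjusted p = 0.907, edgeR).

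Syndig1 carried neighbouring regions of intron 1 in which the groups stood in opposite order. At chr2:149838907-149839308 the reads were 11 and 12 in FAD-BIX, 24 and 15 in FAD and 5 and 7 in WT mice, so that FAD lay above both other groups. Next to it, at chr2:149839723-149840485, they were 19 and 42 in FAD-BIX, against 11 and 11 in FAD mice, so that FAD lay below. The first was called in FAD 1 alone and the second in FAD-BIX 2 alone. The first had a log2 fold of FAD over WT of 1.38 ± 0.72, which was 0.54 ± 1.26 without the library labelled FAD 1. Its fold of FAD-BIX over FAD was -0.41 ± 0.62. Without that library this fold turned to 0.26 ± 1.04 with TMM scaling but was -0.41 with library totals, so its sign then depended on the scaling. By RPM, FAD 2 (0.721) still lay above the FAD-BIX mice (0.538 and 0.546) and the WT mice (0.204 and 0.263). The second had a log2 fold of FAD-BIX over FAD of 1.86 ± 0.56, and of 2.1 ± 0.75 without the library labelled FAD 1 (adjusted p = 0.833, edgeR).

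Farther into Syndig1, intron 3 held a region with fewer than 6 reads in each WT mouse. At chr2:149924653-149924928 the reads were 13 and 4 in FAD-BIX, 15 and 19 in FAD and 2 and 5 in WT mice; FAD over WT had a log2 fold of 1.87 ± 0.86 (adjusted p = 0.852, edgeR). In the last intron, chr2:149983132-149983391 had 5 and 9 reads in FAD, against 18 and 14 in WT mice, with a log2 fold of -1.64 ± 0.67 (adjusted p = 0.832). In both regions the groups did not overlap between FAD and WT, as at 29.6% (higher) and 7.09% (lower) of all regions. The first was called in FAD 2 alone and the second in WT 1 alone, so each order is fixed in part by the choice of regions. Under the inhibitor the lower Syndig1 region with the smallest p lay in the same intron (chr2:149957866-149958198), with 7 and 12 reads in FAD-BIX, 19 and 23 in FAD and 18 and 9 in WT mice.

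The level of a region followed the library that had called it. The 11 Grid1 regions called in FAD 2 alone had 1.18 and 3.36 RPM per kb in FAD mice and 1.33 and 1.07 in WT mice. The 5 called in WT 1 alone had 1.25 and 1.53 RPM per kb in FAD mice and 2.39 and 1.07 in WT mice. The 11 called in FAD-BIX 2 alone had 1.07 and 2.28 in FAD-BIX, against 1.29 and 1.31 in FAD mice. In each set the calling library was highest and the other mouse of its group lay near the other libraries. Over all regions called in FAD 2 alone in the first table, the levels were 1.36 and 3.26 RPM per kb in FAD mice and 1.18 and 1.35 in WT mice, so the pattern was that of the whole table. Of the 49 member regions of the first table, 4, all in intron 8 of Grid1, were called in more than 1 library, while 94.9% of all regions were called in 1 library alone.

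**Figure D3:**
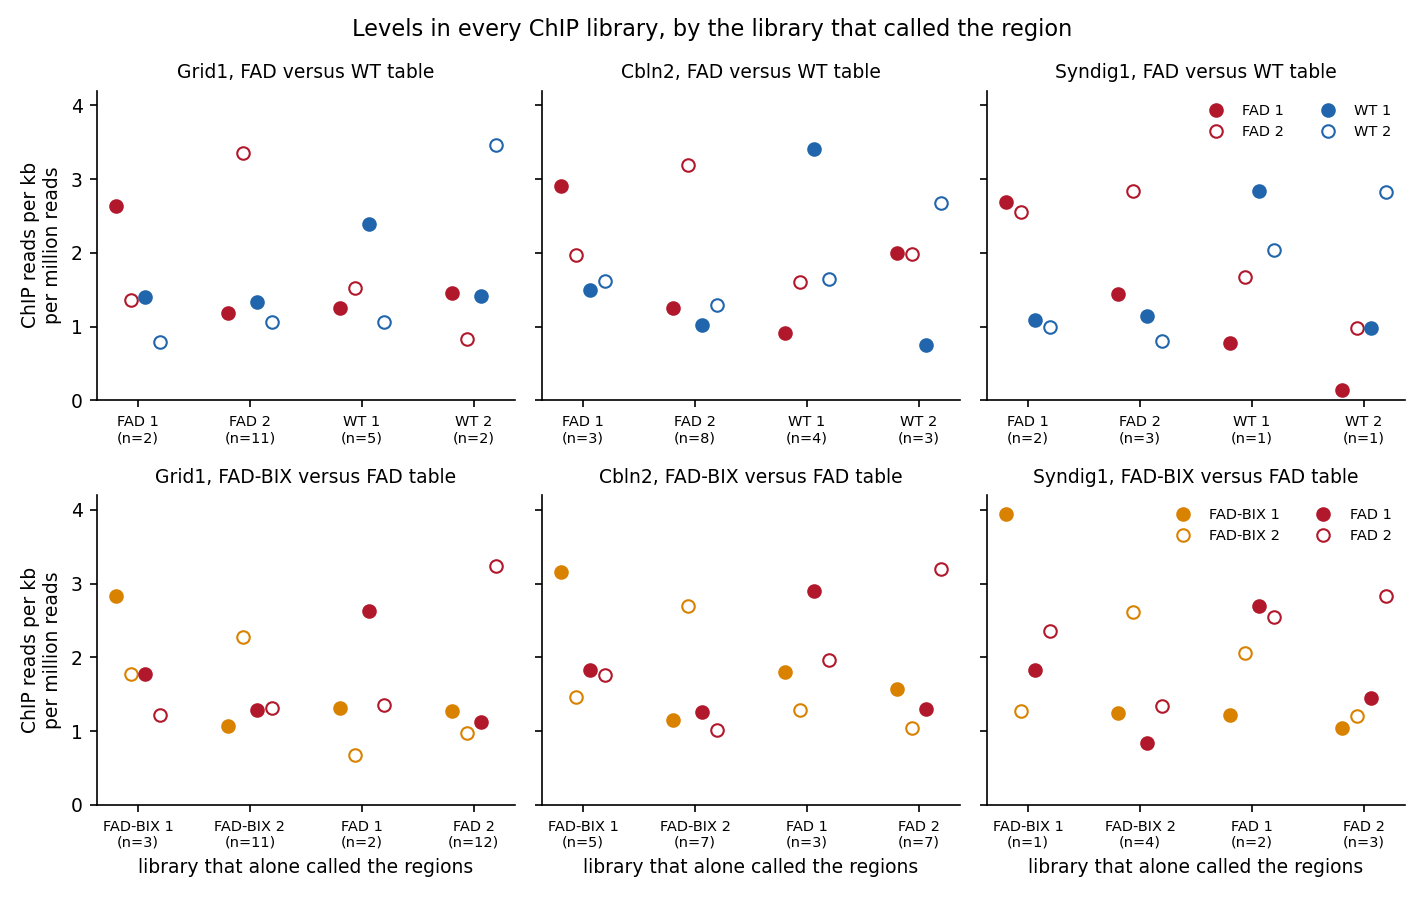
ChIP level (RPM per kb) in each of the 4 libraries of a table, for the regions called in a single library (x axis, with their number), per gene; above, FAD and WT, below, FAD-BIX and FAD. In each of the 24 sets the highest point is the library that called the regions, such as 3.36 for FAD 2 among 11 Grid1 regions.

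The regions present in both tables put the 3 groups side by side, with no test. At 50% reciprocal overlap there were 16 in Grid1, 12 at Cbln2 and 5 in Syndig1. Grid1 had 1.52 and 1.13 RPM per kb in FAD-BIX, 1.59 and 3.01 in FAD and 1.44 and 1.03 in WT mice. Cbln2 had 1.82 and 1.22 in FAD-BIX, 1.66 and 2.86 in FAD and 1.10 and 1.48 in WT mice. Syndig1 had 1.10 and 1.48 in FAD-BIX, 1.85 and 2.74 in FAD and 1.12 and 0.87 in WT mice. FAD lay above both other groups for Grid1 and Syndig1, while for Cbln2 the library labelled FAD 1 lay within the FAD-BIX range. Mean FAD-BIX and WT levels differed by less than 1 SD of either group for Grid1 and Cbln2, and by more than 1 SD for Syndig1. The FAD-BIX and WT mice overlapped for Syndig1 too, with 1.10 in FAD-BIX 1 below 1.12 in WT 1.

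A region is in both tables mostly because a FAD library, which the tables share, had called it: this held for 32 of the 33. The FAD mean was the highest of the 3 in 32 of 33 regions, and both FAD mice were above all 4 other mice in 6. That order is fixed in part by the choice of regions and is no sign of a reversal under BIX01294. The mean of the FAD-BIX mice was above that of the WT mice in 24 of the 33, in a comparison that no deposited table makes. These counts were not made over all regions present in both tables, so nothing particular to the 3 genes is read from them.

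**Figure D4:**
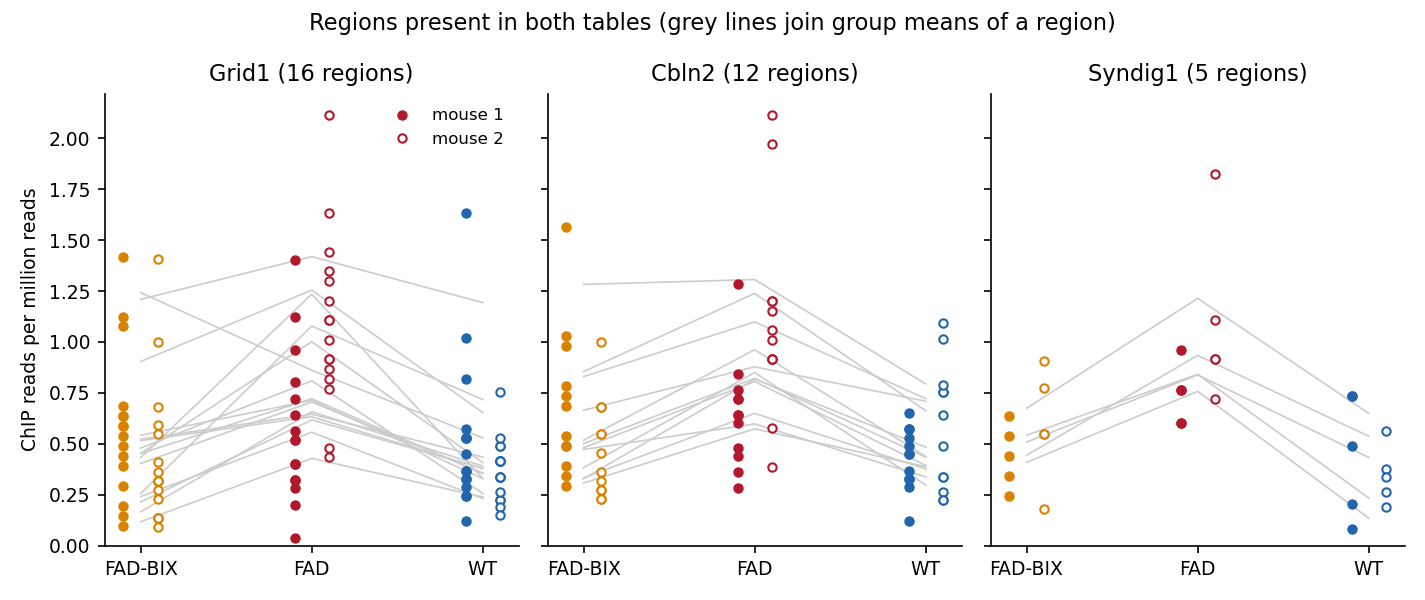
ChIP RPM at the regions present in both tables, for mouse 1 (filled) and mouse 2 (open) of FAD-BIX, FAD and WT, with grey lines joining the group means of a region. FAD means are highest in 32 of 33 regions, of which a FAD library had called 32.

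Other genes of the delta receptor and cerebellin pathway did not pass the test in either comparison. Of 12 partners reported here, 5 had regions in the FAD and WT table (62 regions), and none of the 5 tested passed an unadjusted p under 0.05 in either direction, where 1.33% and 3.23% of all genes did. Nrxn3, a presynaptic neurexin, had 36 regions and a log2 fold of FAD over WT of -0.06 ± 0.31. Dcc, a netrin receptor, had 22 regions, with 325 and 392 reads in FAD mice, against 270 and 288 in WT mice, and a fold of -0.0025 ± 0.24. Adgrb3, an adhesion receptor that binds C1q-like proteins, had the smallest p, with 10 and 11 reads in FAD mice, against 23 and 12 in WT mice, and a fold of -1.11 ± 0.65 (adjusted p = 0.928, edgeR). The median over the 5 was -0.17 with all below 0, beside 0.005 over all genes, of which 49.6% were below 0.

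In FAD-BIX over FAD, 6 of these partners had 103 regions, and none of the 5 tested passed an unadjusted p under 0.05, where 2.92% and 1.83% of all genes did. Nrxn3 (57 regions) had a log2 fold of 0.31 ± 0.23 and Dcc (38 regions) 0.27 ± 0.20. Adgrb3 again had the smallest p, with 38 and 60 reads in FAD-BIX, against 37 and 36 in FAD mice, and a fold of 0.75 ± 0.39 (adjusted p = 0.869, edgeR). All 5 were above 0, with a median of 0.31, beside -0.002 over all genes, of which 49.9% were above 0. The comparisons share the FAD libraries, so the opposite signs are not independent.

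The second list, of proteins related to SynDIG1 and other auxiliary proteins of AMPA receptors, had few regions. In FAD over WT, 5 of 20 genes had 25 regions. Of 5 tested, 0 passed an unadjusted p under 0.05 with edgeR, where 1.33% (higher) and 3.23% (lower) of all genes did. The median fold was -0.01, beside 0.005 over all genes. Cacng3, a TARP subunit that helps to traffic AMPA receptors, had 42 and 57 reads in FAD mice, against 19 and 28 in WT mice over 3 regions (log2 fold 0.69 ± 0.39, adjusted p = 0.928, edgeR). Nptx2, a secreted pentraxin that clusters AMPA receptors, had 15 and 8 reads in FAD mice, against 21 and 9 in WT mice (-0.69 ± 0.75). Shisa6 (13 regions, -0.01 ± 0.24) and Shisa9 (5 regions, -0.24 ± 0.33), which encode AMPA receptor auxiliary proteins, had the most regions.

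In FAD-BIX over FAD, 6 of these 20 genes had 30 regions. Of 4 tested, 0 passed an unadjusted p under 0.05 with edgeR, where 2.92% (higher) and 1.83% (lower) of all genes did. The median fold was -0.26, with 2 above 0 and 2 below, beside -0.002 over all genes. Cacng3 had 19 and 28 reads in FAD-BIX, against 42 and 57 in FAD mice (log2 fold -0.71 ± 0.42, adjusted p = 0.869, edgeR). Gsg1l, another AMPA receptor auxiliary protein, had 65 and 85 reads in FAD-BIX, against 86 and 77 in FAD mice (0.20 ± 0.31). Shisa6 had 17 regions and a fold of 0.07 ± 0.22, and Shisa9 had 4 regions and -0.59 ± 0.48.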

How the data were processed

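H3K9me2 ChIP and input libraries of 6 mice were read from the authors' 2 deposited comparison tables. The submitters' processing notes name Trimmomatic, BWA 0.7.12, MACS2 2.1.0 and the build mm9. Of the genes that regions overlap by symbol, however, 96.5% and 96.3% lay at their RefSeq GRCm38.p6 position, so coordinates are given as GRCm38, as the files have them; no header says if counting starts at 0 or 1. Per the file headers, the tables hold a read count per library and region and the RPM value. From the values, RPM was (count + 1) over the library total, which yielded that total. The log2 fold changes and p-values that the authors deposited are not used. Per the labels, reads were 50 bp single-end or 150 bp paired-end, with no word on which library had which.

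Each region counted once. Counts, or their sums per gene, were compared between the groups of a table by edgeR's quasi-likelihood test (version 4.0.16, R 4.3.3) with TMM scaling, its default low-count filter, Benjamini-Hochberg adjustment over all regions or genes and a threshold of 0.05. The SE is the absolute log2 fold over the square root of F. RPM per kb is the summed reads over total reads and summed width. The members, lists and named regions were chosen with earlier results of these data known. The text names all members; of their regions, a selection of those with the smallest p per direction, the most reads, several calls or a match between tables; and per list the genes with the most regions and the smallest p, leaving out 2 partners that are not reported here. The steps were tested on simulated data. Nothing in the labels says how far the 2 mice of a group were handled apart, so p-values measure the spread between these libraries only.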

Additional observations from a re-analysis of the deposited data

How the results depend on the processing

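No member crossed the 0.05 threshold under any alternative run. Of 79 recomputed ChIP sums of the 3 genes, 54 kept their direction and 25 reversed (smallest adjusted p 0.0539); of 48 input sums, 6 reversed. The 13 folds of regions picked for the smallest p kept their direction in all 156 recomputations (smallest adjusted p 0.133), a choice that favours large folds; of all 42 and 51 member regions tested, 30 in FAD over WT and 32 in FAD-BIX over FAD reversed at least once. So did 6 of 7 further folds of named regions. The Grid1 region at 35376545 (FAD over WT -0.47) gave 0.24 with library totals, 0.14 with ChIP over input, 0.83 with library totals without FAD 1 and, with 1 library left out, -1.01 to 0.24; that at 35051348 (-0.14) gave 0.58, 0.93 and 1.19 under the first 3 of these, 0.10 without FAD 1 and -0.74 to 0.69 over the libraries left out. The Syndig1 region at 149957866 (FAD over WT 0.21) gave -0.055 with ChIP over input, -0.044 without FAD 1 and -0.33 to 0.92 over the libraries left out. In FAD-BIX over FAD, the Syndig1 region at 149838907 (-0.41) gave 0.26 without FAD 1 and -1.05 without FAD 2, that at 149924653 (-0.57) gave 0.034 without FAD-BIX 2 and -1.7 without FAD-BIX 1, and the Cbln2 region at 87022050 (1.49) gave -0.49 with ChIP over input. Library totals gave FAD over WT folds of 0.40 for Cbln2 and 0.46 for Grid1 and FAD-BIX over FAD folds of -0.015, -0.24 and -0.11 for Cbln2, Grid1 and Syndig1; ChIP over input in limma gave 0.58, 0.84 and 1.77 for Cbln2, Grid1 and Syndig1 in FAD over WT (Syndig1 0.10 as reported), and in FAD-BIX over FAD -0.14, -0.016 and -0.011. For input sums, library totals gave -0.22 for Cbln2 in FAD over WT and 0.0005 for Syndig1 in FAD-BIX over FAD. Grid1 turned to 0.20 (FAD over WT) and -0.31 (FAD-BIX over FAD) over regions called in 2 or more libraries, where Cbln2 had 0.80 in FAD-BIX over FAD (0.25 as reported, adjusted p 0.999), and Grid1 in FAD-BIX over FAD turned to -0.0046 over overlapping regions alone. With 5 counts added, log2 ChIP over input of Syndig1 in FAD mice of the FAD-BIX table was 1.947. The 18 recomputed levels at matched regions moved by less than 1 SD. The cause was not tested.

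Each library was left out in turn, the lone library then being assumed to vary like the others. In FAD over WT, ChIP folds ran from -0.34 to -0.047 for Cbln2, from -0.30 to 0.057 for Grid1 and from -0.076 to 0.24 for Syndig1. In FAD-BIX over FAD they ran from 0.074 to 0.41, from -0.15 to 0.18 and from -0.11 to 0.38. With library totals as well, dropping FAD 1 gave 0.70, 0.77 and 0.96 in FAD over WT and -0.25, -0.48 and -0.37 in FAD-BIX over FAD for Cbln2, Grid1 and Syndig1, while dropping FAD 2 gave 0.019, 0.063 and 0.31, and 0.27, 0.043 and 0.21. Input folds ran from 0.003 to 0.19, from -0.39 to 0.25 and from -1.11 to -0.61 in FAD over WT, and from -0.065 to 0.21, from -0.46 to -0.048 and from -0.50 to 0.17 in FAD-BIX over FAD.

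Counts of calls, 0 in each comparison as reported, moved most when a library was left out: FAD over WT gave 0 to 119 regions, 0 to 30 genes and 1 to 9 input genes, and FAD-BIX over FAD 12 to 26 regions, 0 to 22 genes and 0 to 4 input genes. With library totals as well, dropping FAD 1 gave 12 regions and 566 genes in FAD over WT and 17 and 78 in FAD-BIX over FAD; dropping FAD 2 gave 24 and 18, and 18 and 13. Library totals alone gave 2 regions, 2 genes and 1 input gene in FAD over WT, and 4 regions and 3 genes in FAD-BIX over FAD. No filter on low counts gave 1 input gene in FAD over WT, and 17 regions and 9 genes in FAD-BIX over FAD. DESeq2 called 1 gene, and overlapping regions alone 1 gene, in FAD over WT.

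The replicate numbers are shared by the groups, but deviations of same-numbered ChIP libraries correlated at 0.057 in FAD and WT and -0.04 in FAD-BIX and FAD, with 2 pairs each, so nothing shows that the numbers pair mice. With the replicate number as a block, 3 genes and 2 input genes were called in FAD over WT and 7 genes in FAD-BIX over FAD, and none was a member.

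Each group had 2 mice, and a shift shared by the whole genome is not visible under these scalings.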
